A study of Mus musculus with 5 samples.

Results

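Isolated estradiol-gained sites are stretches of chromatin where estrogen receptor α (ERα) was called in the uterus after estradiol, with no other ERα peak of either treatment nearby. They were chosen by peak position alone, as peaks of the estradiol list with an edge-to-edge gap of more than 100 kb to every other estradiol peak and to every vehicle peak (autosomes only). The rule was met by 1297 of the 17055 autosomal estradiol peaks, or 7.60% (95% Wilson interval 7.22 to 8.01). All intervals below reflect counting error alone and take each peak as independent of the next. By the rule none of the 1297 met a vehicle peak, whereas 78.7% of all autosomal estradiol peaks met none. The word "gained" therefore says only that a peak was listed after estradiol and not after vehicle.

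The mice were C57BL/6J females labelled WT, and all had their ovaries removed, so that little estradiol of their own was present. After 10 to 14 days they received an intraperitoneal injection of saline vehicle or of 250 ng of estradiol per mouse, and uteri were taken 1 hour later. ERα was mapped by chromatin immunoprecipitation and sequencing (ChIP-seq, which recovers the DNA that a protein sits on) from whole uterine tissue, with antibody sc-542. Each treatment was 1 library, giving 5184 vehicle and 17240 estradiol peaks, of which 5137 and 17055 lay on autosomes. Ages, and the number of mice behind a library, are not given in the labels. With 1 library per treatment no difference between treatments has a replicate check, and no p-value is given. A peak list holds no reads and no transcripts, so sequencing depth is unknown and the makeup of the tissue could not be checked against marker genes.

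ERα is a ligand-activated transcription factor of the nuclear receptor family. It binds a palindromic DNA element as a dimer or joins DNA through other factors such as AP-1, and in many tissues most of its sites lie away from gene starts. In the uterus estradiol acts through ERα on epithelium, stroma and smooth muscle, and drives fluid uptake and cell division. ERα sites often come in groups, so a lone site is the other end of the range. All positions below are on the mouse build mm9, with starts counted from 1, reading the deposited starts as counted from 0 (the BED convention). The genes and the DNA letters at these sites were not analysed here, because the gene and promoter tables at hand are on GRCm38.

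Isolated sites were short peaks. Their median length was 206 bp (exact 95% interval of the median 199 to 211, quartiles 161 and 254 bp), and together they covered 278 kb. The mean was 214 bp ± 75.0 (SD over 1297 peaks), and lengths ran from 100 to 753 bp. The 12130 other estradiol-only sites, which had some peak within 100 kb, had a median of 231 bp (228 to 233). The difference in medians, isolated minus other, was -25 bp (95% interval -32.3 to -19.2). The gap was widest at the long end. Only 26 isolated sites (2.00%, 1.37 to 2.92) exceeded 400 bp, against 1079 of the other estradiol-only sites (8.90%, 8.40 to 9.42). At the minimum length of 100 bp the groups did not separate, with 21 isolated sites (1.62%, 1.06 to 2.46) and 203 other sites (1.67%, 1.46 to 1.92). The lower quartile did differ, at 161 bp for isolated sites and 176 bp for the other estradiol-only sites. Peak length was not part of the rule.

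**Figure D1:**
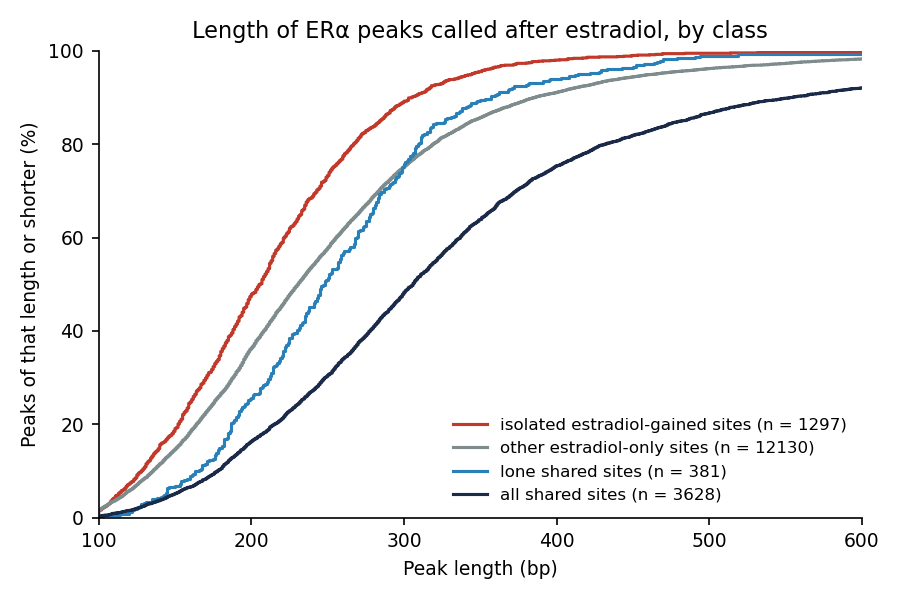
Cumulative share of peaks (y axis, %) at or below a given length (x axis, bp, with the longest peaks beyond the edge) for 4 classes of autosomal estradiol peaks. The curve of the 1297 isolated sites lies farthest to the left over most of its range, with medians of 206, 231, 248 and 306 bp in the order of the key.

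Distance from other peaks and absence in vehicle both went with shorter peaks. The fall with distance did not begin at the 100 kb limit. Over all autosomal estradiol peaks, shared ones included, the median length was 275 bp where another estradiol peak lay within 1 kb. It was 218 bp at gaps of 50 to 100 kb and also 218 bp at 100 to 200 kb. A useful comparison is the lone shared site, an estradiol peak that overlaps a vehicle peak and has no further peak of either list within 100 kb. The 381 lone shared sites met the same 100 kb limit, with a median gap of 206 kb to the nearest other estradiol peak against 180 kb for isolated sites. Their median length was 248 bp (238 to 258), a difference of -42 bp (-54.2 to -30.8, isolated minus lone shared). All 3628 shared sites had a median of 306 bp (301 to 310). Among estradiol-only sites, the 2039 that lay in clusters (at least 5 estradiol peaks with gaps under 12.5 kb) had a median of 265 bp (258 to 272), and isolated minus clustered was -59 bp (-68.9 to -50.4). The 2494 estradiol-only sites within 10 kb of a vehicle peak had a median of 238.5 bp (234 to 243), and isolated minus these was -32.5 bp (-40.8 to -25.8).

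The same rule applied in mirror image to the vehicle list picked out still shorter peaks. It gave 162 lone vehicle-only sites of 5137 autosomal vehicle peaks (3.15%, 2.71 to 3.67), with a median of 159 bp (153 to 170). Isolated estradiol sites exceeded them by 47 bp in the median (34.0 to 54.8). The lone vehicle-only sites hardly differed in length from all 1473 vehicle-only sites, whose median was 166 bp (162 to 169). The longest lone vehicle-only site measured 334 bp (chr10:23507080-23507413), and 2 others exceeded 300 bp. Only peaks without overlap in the other list can meet the rule, which leaves 1473 vehicle and 13427 estradiol peaks. Among these, 162 of the 1473 and 1297 of the 13427 (9.66%, 9.17 to 10.2) qualified. The 3.15% and the 7.60% thus rest on unlike bases. The vehicle list is also shorter than the estradiol list, and how far this sets the shares and lengths was not tested.

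The isolated share of estradiol-only peaks fell with length in steps. It was 12.2% (10.8 to 13.7, 248 of 2039) for peaks of up to 150 bp and 12.4% (11.3 to 13.7, 373 of 2998) for those over 150 and up to 200 bp. Over 200 and up to 250 bp it was 11.3% (10.2 to 12.5, 330 of 2929), which still overlaps the shorter bands. It then dropped to 8.90% (7.81 to 10.1, 206 of 2315) up to 300 bp, 5.59% (4.67 to 6.67, 114 of 2041) up to 400 bp and 2.35% (1.61 to 3.43, 26 of 1105) above 400 bp. The change thus lay above 250 bp.

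**Figure D2:**
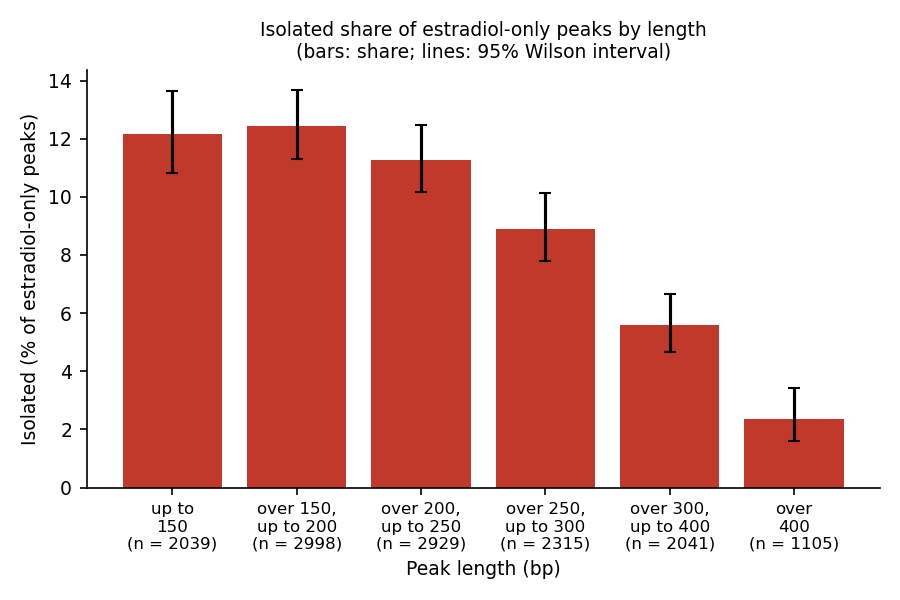
Isolated sites as a share (y axis, %) of autosomal estradiol-only peaks in 6 bands of peak length (x axis, bp), with 95% Wilson intervals. The first 3 bands lie between 11.3% and 12.4%, and the share then falls to 2.35% above 400 bp.

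Long isolated sites did exist, and the 10 longest lay on 9 chromosomes. The longest was chr1:94418715-94419467, 753 bp, with its nearest peak 124 kb to the left and the next on the right at 144 kb. Its nearest vehicle peak lay 184 kb away. The next, chr6:17935405-17936069, measured 665 bp and was the most remote of the first 3, with gaps of 396 and 270 kb. After it came chr11:74643833-74644496 at 664 bp, with gaps of 181 and 158 kb. For both of these the nearest peak was a shared site, of 163 and 361 bp in that order, both shorter than the isolated site.

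The next 3 had lopsided surroundings. The peak chr7:120635768-120636324 (557 bp) had a neighbour 114 kb to the left and its nearest vehicle peak at 469 kb. The peak chr10:54282814-54283368 (555 bp) had a shared site 159 kb to the left and nothing for 1822 kb to the right. The peak chr13:97345585-97346116 (532 bp) was close to the limit, with a gap of 101 kb on the left and 562 kb on the right.

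The remaining 4 ranged from 469 to 514 bp. Chromosome 9 held 2 of them, chr9:89501023-89501536 (514 bp), whose nearest vehicle peak was 529 kb away, and chr9:57679025-57679494 (470 bp), at 135 kb from vehicle. The peak chr18:11051804-11052287 (484 bp) had gaps of 518 and 174 kb. The peak chr2:33286360-33286828 (469 bp) sat almost midway between its neighbours, at 114 and 113 kb, and 439 kb from vehicle. In 7 of the 10 the nearest peak was also estradiol-only. In all 10 that nearest peak was shorter than the isolated one, the longest at 379 bp. The choice by length largely brings this about, since only 11.7% of all autosomal estradiol peaks exceeded 400 bp.

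By the rule every gap exceeds 100 kb, so the gaps are a description. The nearer gap had a median of 174 kb (quartiles 126 and 285 kb). On the far side the median was 413 kb (quartiles 242 and 814 kb) over the 1281 sites with peaks on both sides. The other 16 were the first or last peak of their chromosome. A nearer gap above 200 kb was found at 541 sites (41.7%), above 500 kb at 108 (8.33%) and above 1000 kb at 27 (2.08%). The nearest vehicle peak lay at a median of 350 kb (quartiles 197 and 656 kb), and 173 sites (13.3%) had none within 1000 kb.

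**Figure D3:**
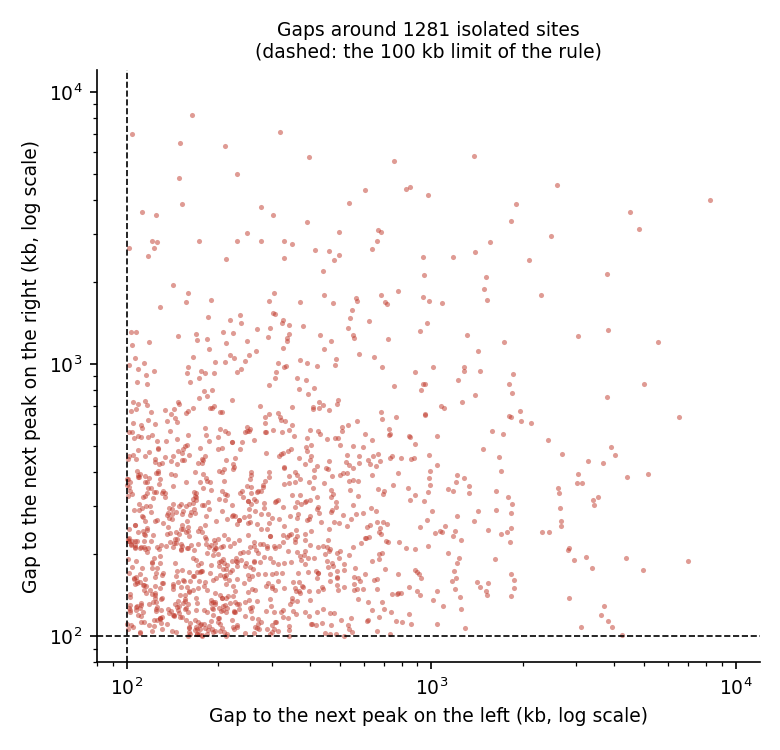
Gap to the next peak of either list on the left (x axis) and on the right (y axis), both in kb on log scales, for the 1281 isolated sites with a peak on both sides. Dashed lines mark the 100 kb limit, and the points thin out from a dense corner near that limit to single sites above 1000 kb on both axes.

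The 10 most remote sites ran from 108 to 318 bp with a median of 202.5 bp, and 5 of them exceeded the median of all isolated sites. The peak chr17:94519052-94519369 (318 bp) was the last of its chromosome, 4473 kb beyond the previous peak. The peak chr15:20892313-20892493 (181 bp) lay 8240 kb from its left and 4007 kb from its right neighbour, the emptiest surroundings of any isolated site with peaks on both sides. The peak chr8:55127679-55127786 (108 bp) had gaps of 4486 and 3621 kb, and its nearest peak was a vehicle-only peak of 109 bp. These 3 differed widely in length although all stood more than 3000 kb from any peak.

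Chromosomes 3 and 4 each held 2 of the 10 most remote sites. On chromosome 3 these were chr3:75549232-75549507 (276 bp, nearer gap 3122 kb) and chr3:5860590-5860883 (294 bp, 2478 kb). On chromosome 4 they were chr4:76015218-76015356 (139 bp, 2580 kb) and chr4:29112841-29113064 (224 bp, 2133 kb). The list was completed by chr9:5047024-5047203 (180 bp, 2498 kb), the first peak of its chromosome, chr5:41367596-41367717 (122 bp, 2094 kb) and chr6:61221753-61221988 (236 bp, 1901 kb). None of these 10 reached the length of the 10 longest isolated sites.

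Within the isolated sites, length fell somewhat with the gap. Sites with a nearer gap of 100 to 150 kb had a median of 212 bp (205 to 218, n = 496), and those of 150 to 200 kb had 214 bp (199 to 222, n = 260). The median was 203 bp (186 to 212, n = 241) at 200 to 300 kb and 194 bp (182 to 208, n = 192) at 300 to 500 kb. Beyond 1000 kb it was 179 bp (158 to 200, n = 27), an interval that does not meet that of the first band. The longest peak also came down, from 753 bp in the first band to 318 bp beyond 1000 kb, in bands that hold fewer and fewer sites.

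At the 100 kb limit, the 3 sites just inside were chr7:151109339-151109502 (164 bp), chr11:83842250-83842437 (188 bp) and chr11:20442760-20443019 (260 bp), with gaps of 100094, 100185 and 100206 bp. The 3 estradiol-only sites just outside were chr5:150482608-150482774 (167 bp), chr4:57583704-57583991 (288 bp) and chr8:70471259-70471414 (156 bp), with gaps of 99855, 99636 and 99565 bp. Their lengths ran over 164 to 260 bp inside and 156 to 288 bp outside.

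The nearest neighbour of an isolated site was mostly another estradiol-only site, in close to the proportion of such sites on the autosomes. An estradiol-only site was nearest for 974 of 1297 (75.1%, 72.7 to 77.4), and such sites make up 72.5% of the 18528 autosomal sites when each shared site is counted by its estradiol peak alone. A shared site was nearest for 216 (16.7%, 14.7 to 18.8), against 19.6% of sites. A vehicle-only site was nearest for 107 (8.25%, 6.87 to 9.87), against 7.95% of sites, which lies inside the interval. For estradiol-only sites the share of all sites lies just below the interval, and for shared sites it lies above.

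Many isolated sites followed each other along the chromosome with nothing in between, which the rule in part brings about, since the neighbour of an isolated site already has more than 100 kb free on that side. For 414 of them (31.9%, 29.4 to 34.5) the nearest peak was itself isolated. Isolated sites are 5.84% of the autosomal peaks of both lists, where a shared site is counted in each list. A peak with a neighbour within 100 kb on one side cannot border an isolated site on that side. The 5.84% is thus no like base for this share or for the next, and a like base was not worked out. Counted along the chromosome, 676 (52.1%, 49.4 to 54.8) had another isolated site as an adjacent peak, in 258 runs of at least 2. The other 621 stood singly between peaks of other classes. There were 14 runs of 5 or more sites, among them 2 of 7 and 5 of 6.

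The runs with the most sites differed in extent. On chromosome 15 a run of 7 filled 2688 kb (chr15:7658314-10346690) with peaks of 161 to 355 bp, and its 2 longest, of 345 and 355 bp, stood side by side with a gap of 152 kb. On chromosome 3 a run of 7 filled 2035 kb (chr3:146711617-148746503) with peaks of 116 to 309 bp. The tightest run of 6 filled only 974 kb of chromosome 1 (chr1:9639378-10613539), with peaks of 123 to 231 bp. The widest run of 6 spread over 7919 kb of chromosome 10 (chr10:44908202-52827482), with peaks of 115 to 282 bp. These stretches held no vehicle peak and no other estradiol peak, and were picked once the values were known.

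The next comparison asked whether remote estradiol peaks were less often overlapped by a peak of the vehicle list. For this, estradiol peaks were ordered by the gap to the nearest other estradiol peak, without regard to the vehicle list. Of 1889 estradiol peaks with no other within 100 kb, 1297 were the isolated sites, 441 overlapped a vehicle peak and 151 had a vehicle peak within 100 kb without overlap. The overlapped share was 23.3% (21.5 to 25.3), against 21.0% (20.4 to 21.7, 3187 of 15166) for estradiol peaks with a neighbour within 100 kb. The 2 intervals overlap at this setting. They separate, with the remote peaks higher, at a gap of 200 kb (26.5%, 23.6 to 29.6, against 21.0%, 20.4 to 21.6) and when overlap must cover 50% of both peaks (20.9%, 19.1 to 22.8, against 16.5%, 15.9 to 17.1). The same holds in the lower part of each list's deposited peak numbers (23.6%, 21.7 to 25.6, against 19.6%, 18.7 to 20.6). At a gap of 50 kb the intervals still overlap (22.7%, 21.3 to 24.1, against 20.9%, 20.2 to 21.6). So they do with peaks of the minimum length left out (23.1%, 21.3 to 25.1, against 20.9%, 20.3 to 21.6).

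At like length the remote peaks were the more often shared, most clearly at middle lengths. Among peaks over 200 and up to 300 bp, 27.0% (24.1 to 30.2, 220 of 814) of those alone overlapped a vehicle peak, against 16.8% (15.8 to 17.8, 938 of 5588) of those with a neighbour. Among peaks of up to 200 bp the shares were 13.7% (11.5 to 16.2) and 10.0% (9.22 to 10.9), and the intervals do not meet. Above 300 bp they were 41.7% (35.9 to 47.7) and 37.1% (35.7 to 38.5), with intervals that overlap. Over all lengths the share rose at the far end, from 20.9% (18.5 to 23.4) at gaps of 100 to 200 kb to 31.8% (25.6 to 38.7, 61 of 192) above 500 kb. The last value rests on 192 peaks, and whether input chromatin gives signal at such remote shared peaks was not tested.

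**Figure D4:**
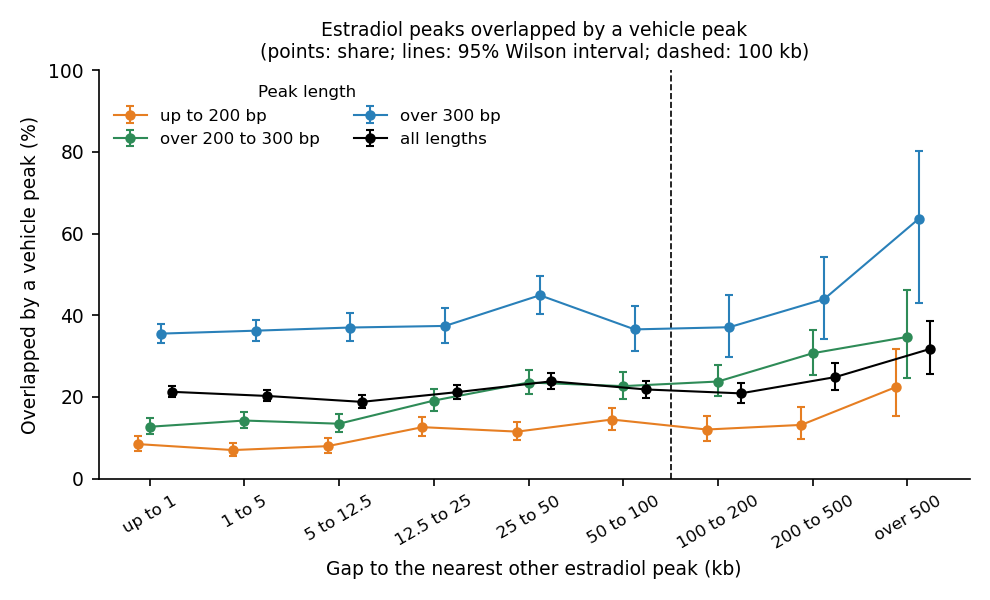
Share of autosomal estradiol peaks overlapped by a vehicle peak (y axis, %) against the gap to the nearest other estradiol peak (x axis, kb, in 9 classes), for all lengths and for 3 length bands, with 95% Wilson intervals. The curve for peaks over 200 and up to 300 bp climbs from 12.7% at gaps up to 1 kb to 34.7% above 500 kb, while the curve for all lengths stays between 18.8% and 24.9% up to 500 kb.

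Across the 19 autosomes, the number of isolated sites per Mb of span (from the first to the last peak of either list) ran from 0.427 on chromosome 14 to 0.657 on chromosome 18, a ratio of 1.54. All estradiol peaks ran from 5.29 per Mb on chromosome 3 to 10.8 on chromosome 11, a ratio of 2.04. The isolated share accordingly differed, from 11.2% (9.27 to 13.6, 93 of 827) on chromosome 3 to 5.46% (4.35 to 6.85, 70 of 1281) on chromosome 11. These extremes were picked as such, and the rule itself limits how many isolated sites a Mb can hold.

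Density and isolation are tied by the rule, since denser peaks leave smaller gaps and the peak number is also the denominator of the share. As a description over 19 chromosomes, peak density and isolated share had a Pearson r of -0.71 and a Spearman rho of -0.69. Peak density and isolated sites per Mb had an r of 0.14 and a rho of 0.09. The chromosomes share 1 library and 1 set of calling settings, so they are not independent samples. The median length of isolated sites ran from 185 bp on chromosome 4 to 231 bp on chromosome 19, where only 29 sites lay.

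**Figure D5:**
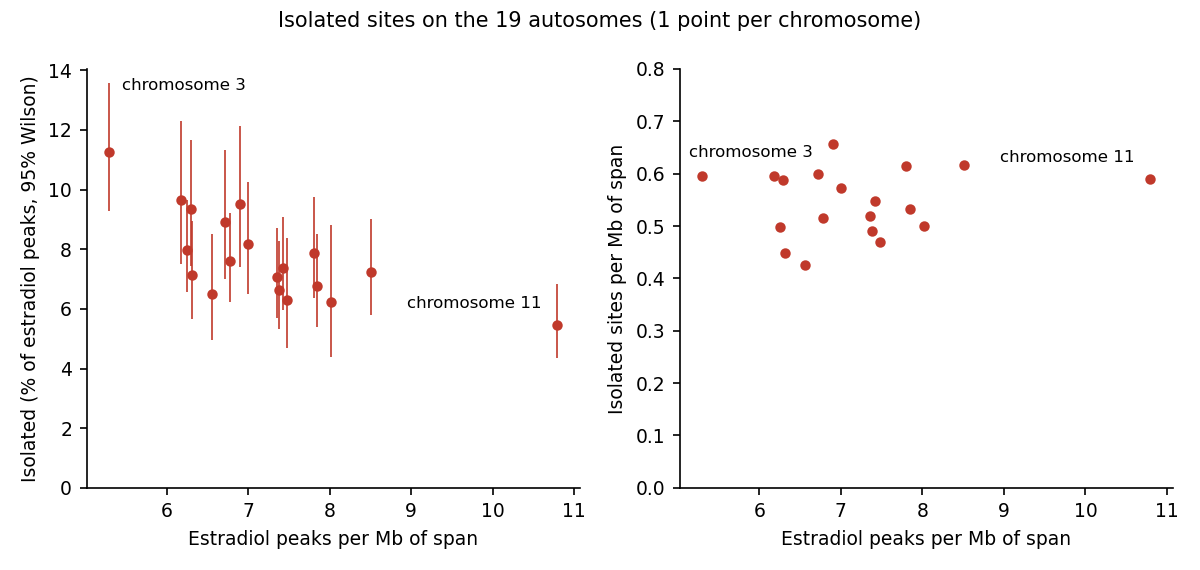
Left, the isolated share of estradiol peaks (y axis, %, 95% Wilson interval) and right, isolated sites per Mb of span (y axis), both against estradiol peaks per Mb of span (x axis), with 1 point per autosome. The share falls from 11.2% on chromosome 3 to 5.46% on chromosome 11, whereas the number per Mb stays between 0.427 and 0.657.

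Positions along the chromosomes are described in the same way, under the same tie between density and gaps. With each autosome's span cut into 5 equal stretches in the order of the coordinates, the isolated sites numbered 281, 244, 224, 257 and 291. Estradiol peaks rose over the same stretches, from 2546 in the first to 4597 in the last. The isolated share thus fell from 11.0% (9.88 to 12.3) in the first stretch to 6.33% (5.66 to 7.07) in the last. In windows of 1 Mb, 968 of the 1909 autosomal windows with any peak held an isolated site, and no window held more than 4. Only 1 ERα peak of either treatment lay in 165 windows, and in 138 of these it was an isolated site. An estradiol peak alone in 1 Mb meets the rule unless a peak of the next window lies within 100 kb. The rule thus largely sets this count.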

How the data were processed

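Per the file headers, the ERα peak lists deposited by the authors are on mm9, with 4 columns (chromosome, start, end, name) and no score or read count. The submitters' processing notes name Partek, with no role. For the aligner, caller, thresholds and control the sources used here give nothing. Of the 5 single libraries, those of RNA polymerase II and input were not used here.

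Gaps ran from the end of a peak to the start of the next, and overlap meant at least 1 bp. Counts came from Python 3.11.15 (numpy 2.4.6, pandas 2.3.3), and bedtools 2.31.1 gave the same 1297 sites. Intervals are 95% Wilson or exact order-statistic intervals (scipy 1.17.1). The interval of a difference in medians combines those of both medians. Tested on simulated data with the real peak lengths, all 200 planted isolated sites and 0 of 440 others were called. The 440 others lay in tight clusters or overlapped a vehicle peak. No simulated gap lay close to 100 kb, so this checks the code and not the limit.

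The members and comparisons were chosen with earlier results of these data known. The rule for named sites took the 10 longest, the 10 most remote and the 3 on either side of the limit. The planned sequence, gene-position and gene-list comparisons (11 lists) need mm9 annotation or sequence and were not run.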

Additional observations from a re-analysis of the deposited data

Results flagged for a closer look

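Chromosome X was outside the rule, but 59 of its 185 estradiol peaks (31.9%, 95% Wilson interval 25.6 to 38.9) also stood more than 100 kb from every other peak, against 7.60% on autosomes. This was flagged as a signal in data that the report does not use. Chromosome X held 185 estradiol peaks, whereas the fewest on any autosome were 465, on chromosome 19, which had the shortest span. Peak density and isolation are tied by the rule here too, and how far density sets the share on chromosome X was not tested.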

How the results depend on the processing

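The number of isolated sites was 2467 with a gap of more than 50 kb and 541 with more than 200 kb. It stayed within 1.5 times of 1297 under the other 5 settings, from 1152 (peaks at or above their list's median length) to 1889 (neighbours from the estradiol list only, which also admits shared peaks). The 1152 were out of 8560 peaks, against 17055 in the main setting. The lower part of each list's deposited peak numbers gave 1239 out of 8513. Leaving peaks out also takes neighbours away from others, so a like number does not mean the same sites. The difference in median length (isolated minus other estradiol-only sites) stayed negative in all 4 alternatives, at -34 bp with 200 kb and -37 bp in the lower part of each list's deposited peak numbers, against -25 bp. The vehicle-overlapped share of remote estradiol peaks was 26.5% with 200 kb (21.0% for peaks with a neighbour) and 20.9% when overlap had to cover 50% of both peaks (16.5%). In these settings and in the peak-number setting the intervals of both kinds of peak no longer met. The intervals still overlapped with 50 kb and with peaks of the minimum length left out. The peak-number setting and all settings of this overlapped share were chosen after seeing the data. Alternatives on motifs, gene starts and gene lists were not run for lack of mm9 sequence and annotation. No paired analysis was possible because each condition is 1 library, so no replicate could be left out either. Unknown read depth limits every statement that a site was absent after vehicle.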

Other observations

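The number inside each deposited peak name has no stated meaning, but high numbers went with short peaks. With the numbers cut into 10 equal bins, the isolated sites had medians of 297, 309 and 303 bp in the first 3 bins. The median was 257.5 bp in the fourth bin and 129 bp in the last. In 9 of the bins the isolated sites were shorter in the median than the other estradiol-only sites, and in the last they were 129 against 128 bp. The isolated share of estradiol-only peaks was 6.54% (5.24 to 8.14) in the first bin, 12.4% (10.8 to 14.1) in the fifth and 7.68% (6.35 to 9.26) in the last. The 5 isolated sites with the lowest numbers (6, 7, 12, 18 and 19) all lay on chromosome 4 and in order of position, from chr4:10317546-10317871 (326 bp) to chr4:32023358-32023631 (274 bp).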
